A study of Mus musculus with 10 samples.

Results

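Calcineurin and protein phosphatase 1 (PP1) are serine/threonine phosphatases whose subunits are encoded by several genes each, and 8 of these genes were followed in germ cell RNA: the calcineurin catalytic genes Ppp3ca, Ppp3cb and Ppp3cc, the calcineurin regulatory genes Ppp3r1 and Ppp3r2, and the PP1 catalytic genes Ppp1ca, Ppp1cb and Ppp1cc. They were taken from the table by their symbols, and all 8 were present among its 15507 genes. The libraries came from germ cells (spermatogonia, spermatocytes and spermatids together) dispersed from testes of 45-day-old mice, 5 wild type (WT) and 5 homozygous GRTH knock-in (KI). The knock-in allele is a human GRTH gene bearing R242H, and GRTH is the RNA helicase that mouse Ddx25 encodes. Reads on genes numbered 12722086 to 16422347 per library. A normalized count is the number of reads on a gene divided by the size factor of its library. The row of Ddx25, the targeted gene, held 5198 to 11101 normalized counts in WT, 146 to 194 in KI libraries 1 to 3, and no more than 3 reads in KI libraries 4 and 5.

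Calcineurin is switched on by calcium and calmodulin, and is built of a catalytic A subunit and a regulatory B subunit. In most tissues the A subunit comes from Ppp3ca or Ppp3cb and the B subunit from Ppp3r1, while Ppp3cc and Ppp3r2 are known as the pair of sperm calcineurin, which male mice need for normal sperm movement. PP1 has a catalytic subunit (alpha from Ppp1ca, beta from Ppp1cb, gamma from Ppp1cc) that is steered by a large family of regulatory subunits. Splicing of Ppp1cc gives gamma 1, which many tissues make, and gamma 2, the PP1 form of spermatids and sperm. Ppp3cc, Ppp3r2 and Ppp1cc are therefore called the sperm isoforms here, and the other 5 genes the widely expressed ones.

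The end of the Ppp1cc coding sequence is what separates gamma 1 from gamma 2, and it is shown because the table splits this locus over 2 rows. The lines below run from the first base of exon 7 to the stop codon (GENCODE M21, mm10, plus strand), with the 61 bases common to both in lower case and the bases after the point where the forms part in capitals. The gamma 1 stretch lies at chr5:122174055-122174144, where exon 7 is read on past the splice site. The gamma 2 stretch spans chr5:122174055-122175050, with 864 intron bases removed.
gamma 1: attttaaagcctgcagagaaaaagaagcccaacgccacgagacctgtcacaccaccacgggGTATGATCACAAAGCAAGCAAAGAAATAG
gamma 2: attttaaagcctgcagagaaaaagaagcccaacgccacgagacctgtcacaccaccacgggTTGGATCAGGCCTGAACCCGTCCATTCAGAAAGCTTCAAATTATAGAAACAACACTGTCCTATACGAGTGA
copy on chromosome 7: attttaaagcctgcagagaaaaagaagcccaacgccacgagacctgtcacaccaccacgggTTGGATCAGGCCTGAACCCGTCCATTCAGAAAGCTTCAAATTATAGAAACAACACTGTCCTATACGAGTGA

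The gamma 1 coding sequence has 323 codons before its stop and the gamma 2 coding sequence has 337. The third line is from Ppp1ccb, which RefSeq (GRCm38.p6, the assembly behind mm10) places on chromosome 7 (119739910 to 119742244) and whose annotated transcript spans this stretch at chr7:119741010-119742005. It differs from gamma 2 at 0 bases of the stretch, and over the whole transcript 1435 of 1437 aligned bases are identical. The table used here instead lists the Ppp1ccb row on chromosome 5 (122158341 to 122175270, plus strand), inside the span of the Ppp1cc row (122158275 to 122175274), an overlap of 16930 bases. The Ppp1cc row alone may thus not count the whole gene, and reads of gamma 1, of gamma 2 and of the chromosome 7 copy cannot be told apart from these 2 rows. The main Ppp1cc values below are given with the Ppp1ccb row beside them.

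The B subunits are shown for the contrast between a sperm gene and its widely expressed partner, as the first 90 coding bases with the 27 that differ in capitals. Ppp3r1 lies on the plus strand within chr11:17159540-17193003 with introns removed, and Ppp3r2 on the minus strand at chr4:49681859-49681948.
Ppp3r1: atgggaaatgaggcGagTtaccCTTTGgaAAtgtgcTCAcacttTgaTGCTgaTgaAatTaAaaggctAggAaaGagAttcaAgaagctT
Ppp3r2: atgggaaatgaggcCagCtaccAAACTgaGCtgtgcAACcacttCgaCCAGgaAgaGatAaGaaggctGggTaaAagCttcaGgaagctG

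Over their whole coding sequences Ppp3r1 and Ppp3r2 were 73.1% identical, with a longest shared run of 20 bases. The 3 calcineurin A genes were 73.6% to 74.8% identical in pairs, with shared runs of at most 23 bases. Ppp1ca and Ppp1cc were the most alike pair at 79.5%, with a shared run of 44 bases. Other overlaps in the table were small: 1810062O18Rik overlapped Ppp3cb by 282 bases and Rad9a overlapped Ppp1ca by 223 bases, both on the opposite strand, and whether counting used strand is not given in the sources used here. In GENCODE, Ppp3r2 lies wholly inside the span of Grin3a on the same strand, and Wdr92 overlaps Ppp3r1 by 18275 bases on the same strand.

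In each class the sperm gene held most of the signal. Levels of different genes were compared as normalized counts per kilobase of annotated exon, as a description with no test. In WT the order was Ppp3r2 (3640 ± 315, SD, n = 5), Ppp3cc (1785 ± 38.5), Ppp1cc (951 ± 270), Ppp3ca (463 ± 44.4), Ppp1ca (313 ± 55.3), Ppp1cb (207 ± 30.6), Ppp3r1 (126 ± 10.6) and Ppp3cb (88.8 ± 4.86). Neighbours in this order did not overlap over the 5 WT libraries, except Ppp1ca and Ppp1cb, whose ranges overlapped although Ppp1ca was the higher in each library. In KI the order of the means was the same, from Ppp3r2 (3119 ± 319) to Ppp3cb (92.7 ± 6.07), but Ppp3ca (341 to 405) and Ppp1ca (335 to 432) overlapped, as did Ppp3r1 and Ppp3cb. The top place of Ppp3r2 held for the Ppp1cc row alone. Adding the Ppp1ccb row put Ppp1cc above Ppp3r2, at 9791 against 3640 in WT and 9292 against 3119 in KI. Per kilobase of coding sequence the sum also stood above it, at 23088 against 20512 in WT and 21912 against 17574.5 in KI. This sum may include reads of the Ppp1ccb copy. With the Ppp1cc row alone, the order below Ppp3r2 depended on the length used. Per kilobase of coding sequence the WT means of Ppp1cb (1261) and Ppp3r1 (705) stood above that of Ppp1ca (465), and in KI the mean of Ppp1cc (2296) stood above that of Ppp3cc (2238).

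**Figure D1:**
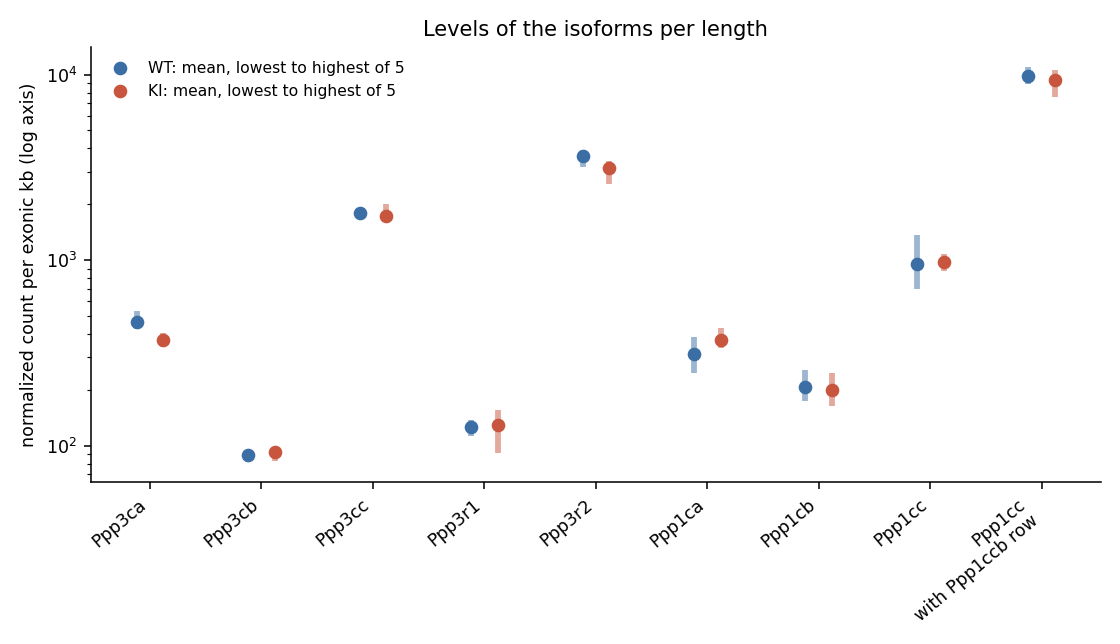
Normalized counts per exonic kilobase (log axis) of the 8 genes, and of Ppp1cc with the Ppp1ccb row added. Points are means and bars run from the lowest to the highest of 5 libraries. Ppp3r2 and Ppp3cc lie above the other calcineurin genes in both genotypes, and adding the Ppp1ccb row lifts Ppp1cc from 951 to 9791 in WT.

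Shares within a class say the same per length. Ppp3r2 made up 96.6% ± 0.33 of the regulatory calcineurin signal in WT and 96.0% ± 0.75 in KI (SD, n = 5 each). Ppp3cc made up 76.4% ± 1.59 of the catalytic calcineurin signal in WT and 78.7% ± 1.58 in KI, with Ppp3ca at 19.8% ± 1.59 and 17.1% ± 1.36. Within a library Ppp3r2 stood 29.0 ± 2.93 times above Ppp3r1 per kilobase in WT, while Ppp3cc stood 20.1 ± 0.91 times above Ppp3cb and 3.88 ± 0.37 times above Ppp3ca. Ppp3cb made up 3.80% ± 0.14 and 4.24% ± 0.28 of the catalytic signal, the smallest share of the 3 A genes.

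The PP1 share depended on which rows were counted. The Ppp1cc row alone made up 63.9% ± 5.15 of the catalytic PP1 signal per kilobase in WT and 63.0% ± 3.48 in KI. With the Ppp1ccb row added it made up 94.7% to 95.5% in WT libraries and 93.7% to 94.9% in KI libraries. The Ppp1ccb row was 90.3% ± 2.42 of the sum of both rows in WT and 89.4% ± 1.33 in KI.

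KI was compared with WT gene by gene with limma on log2(normalized count + 1), and a gene was called at a Benjamini-Hochberg adjusted p below 0.05 together with a fold change of 1.5 or more. Of the 8 genes, 0 were called, against 14.4% of the 15389 genes tested (8.22% lower in KI and 6.13% higher), and edgeR and DESeq2 called 0 as well. By adjusted p alone 1 of the 8 passed, Ppp3ca, against 22.9% of all genes. Log2 fold changes ran from -0.31 to 0.26 with a median of -0.01, beside a median of 0.03 over all genes tested. In 4 genes the fitted mean was lower in KI and in 4 it was higher.

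**Figure D2:**
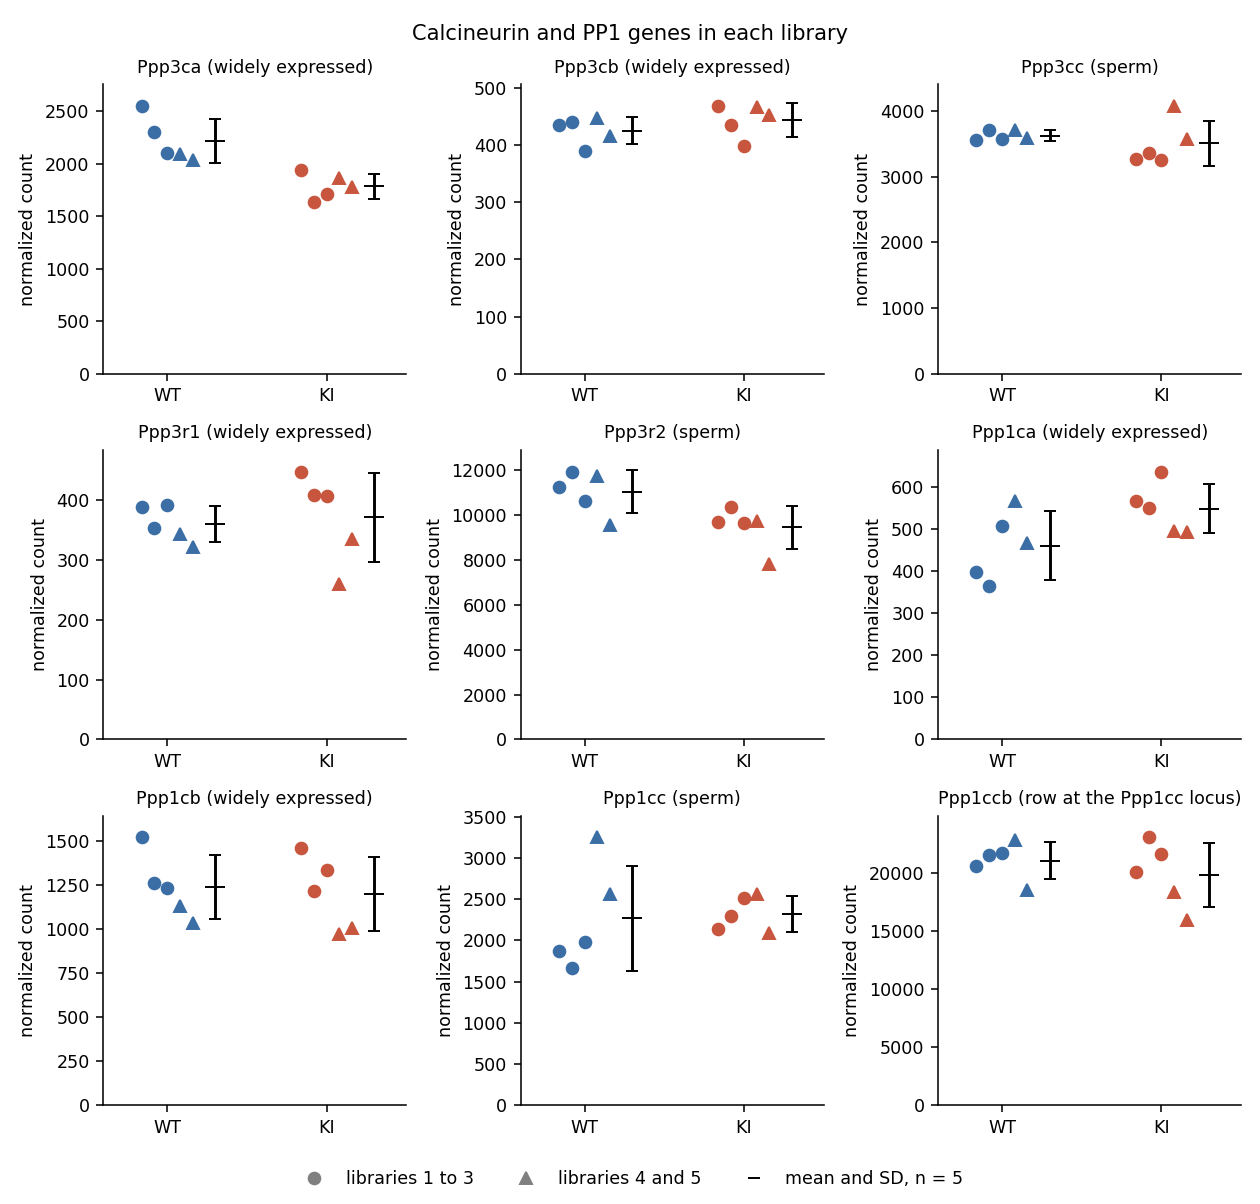
Normalized counts of the 8 genes and of the Ppp1ccb row in each library, with each axis starting at 0. Circles are libraries 1 to 3, triangles are libraries 4 and 5, and black bars are the mean and SD of 5. Ppp3ca is the gene whose genotypes do not overlap, and the triangles of Ppp1cc in WT lie above its circles.

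Ppp3ca, the main widely expressed calcineurin A gene, was lower in KI. Its normalized counts were 2551, 2302, 2103, 2092 and 2035 in WT libraries 1 to 5 and 1938, 1631, 1708, 1867 and 1775 in KI libraries 1 to 5. The highest KI library thus lay just below the lowest WT library, and Ppp3ca was the 1 gene of the 8 without overlap, which 17.7% of all genes tested also showed. The log2 fold change was -0.31 (SE 0.09, 95% interval -0.50 to -0.12, limma adjusted p = 0.0203), which is short of the fold change threshold. Leaving out WT library 1 or 2 or KI library 2 or 3 raised the adjusted p to between 0.0510 and 0.0600.

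Ppp3cc, the sperm A gene, had close means in both genotypes. WT libraries were close together at 3557, 3710, 3567, 3709 and 3579, and KI libraries were at 3265, 3362, 3253, 4075 and 3567. KI libraries 1 to 3 lay below every WT library and KI library 4 lay above every one, so that the spread in KI (SD 343) was wider than in WT (SD 78.3). The log2 fold change was -0.05 (95% interval -0.24 to 0.13, limma adjusted p = 0.707). Ppp3cb, the low A gene, stood at 425 ± 23.3 in WT and 444 ± 29.0 in KI (SD, n = 5 each), a log2 difference of 0.06 (95% interval -0.13 to 0.25, limma adjusted p = 0.681).

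Ppp3r2, the sperm B gene, was the most abundant of the 8 rows. It held 11214, 11920, 10632, 11745 and 9564 normalized counts in WT and 9669, 10356, 9636, 9736 and 7791 in KI. Each KI library lay below the WT library of the same number, but the genotypes overlapped through WT library 5. The number comes from the labels, and the paper describes no pairing of WT with KI mice. The log2 fold change was -0.23 (SE 0.10, 95% interval -0.44 to -0.01, limma adjusted p = 0.134). With the library number as a block the limma adjusted p was 0.0370, a fit in which 32.0% of all genes had an adjusted p under 0.05. Its widely expressed partner Ppp3r1 was at 360 ± 30.3 in WT and 372 ± 74.5 in KI (log2 difference 0.03, 95% interval -0.27 to 0.32, limma adjusted p = 0.920), with KI libraries between 260 and 448 around the WT range of 321 to 393.

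Of the PP1 genes, Ppp1ca (alpha) held 399, 364, 506, 567 and 467 normalized counts in WT and 567, 549, 636, 496 and 493 in KI. The genotypes overlapped, and the log2 fold change was 0.26 (95% interval -0.00315 to 0.53, limma adjusted p = 0.149). Ppp1cb (beta) was at 1237 ± 182 in WT and 1197 ± 210 in KI (log2 difference -0.05, 95% interval -0.33 to 0.22, limma adjusted p = 0.816). The Ppp1cc row was at 2268 ± 643 and 2322 ± 217 (log2 difference 0.07, 95% interval -0.25 to 0.40, limma adjusted p = 0.787). The Ppp1ccb row was at 21074 ± 1621 and 19831 ± 2780 (log2 difference -0.10, limma adjusted p = 0.610), and both rows summed gave a log2 difference of -0.08 (limma adjusted p = 0.662), the opposite sign of the Ppp1cc row. No direction can be given for gamma.

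**Figure D3:**
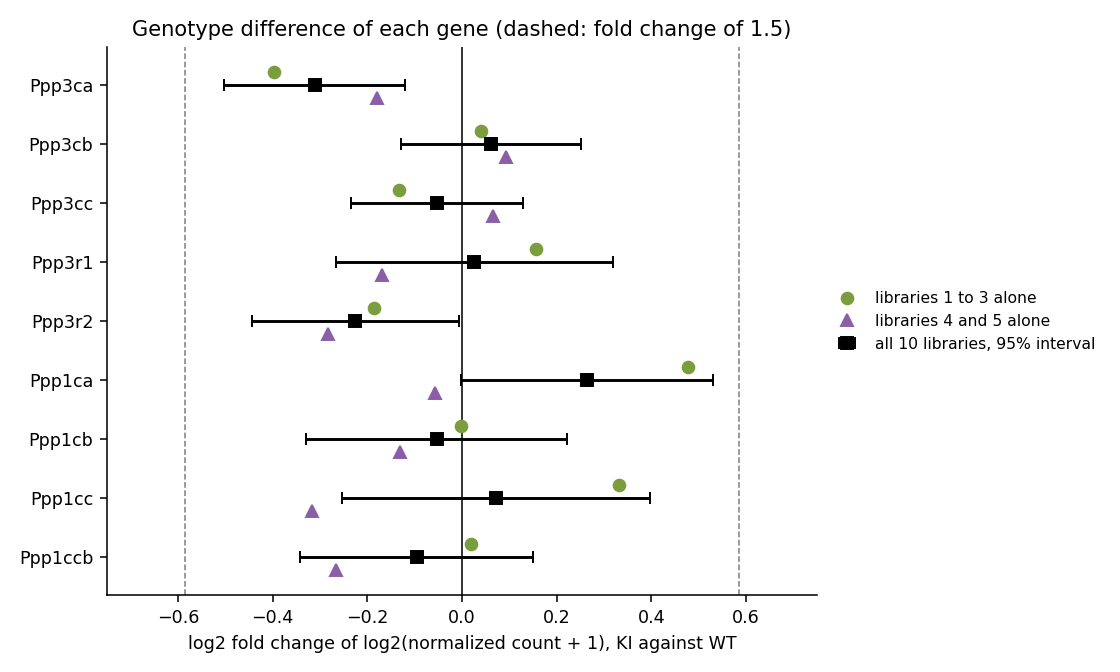
Log2 fold change of each gene, KI against WT. Squares with 95% intervals use all 10 libraries, circles use libraries 1 to 3 alone and triangles libraries 4 and 5 alone, and dashed lines mark a fold change of 1.5. No square is past a dashed line, and the circle and triangle of Ppp1cc lie on opposite sides of 0.

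The scaling of the libraries sets the zero of these differences. Scaling to library totals moved the median log2 fold change of all genes from 0.03 to 0.25, and upper quartile scaling moved it to 0.12. A change of scaling shifts every gene and this median by nearly the same amount. Values set against the median therefore stay alike by construction and are no check of the scaling. Set against it, Ppp3ca was at -0.34 with the size factors and -0.33 with library totals. Ppp3r2 was at -0.25 and Ppp1ca at 0.24 with both. Without that reference, library totals gave Ppp3ca -0.08 (limma adjusted p = 0.449), Ppp3r2 0.00445 (adjusted p = 0.971), Ppp3cc 0.18 (adjusted p = 0.0558), Ppp3cb 0.29 (adjusted p = 0.0208) and Ppp1ca 0.49 (adjusted p = 0.0153).

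A ratio of genes within a library does not move with scaling, and 6 such log2 ratios were tested between genotypes (exact permutation test, two-sided, smallest possible p = 0.00794), with p adjusted over the 6. The ratio of Ppp3cc to Ppp3ca was 0.48, 0.69, 0.76, 0.83 and 0.81 in WT and 0.75, 1.04, 0.93, 1.13 and 1.01 in KI. In KI 4 of 5 libraries lay above every WT library. Each KI library lay above the WT library of its number, though the paper describes no pairing. The difference was 0.26 (95% interval 0.06 to 0.46, exact permutation p = 0.0317, adjusted p = 0.190). Without KI library 1, the lowest in KI, it was 0.31 (exact permutation test, adjusted p = 0.0476). Leaving out any other library gave exact permutation adjusted p of 0.107 to 0.333. The balance between the sperm A gene and Ppp3ca was not shown to differ once the 6 ratios were allowed for.

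**Figure D4:**
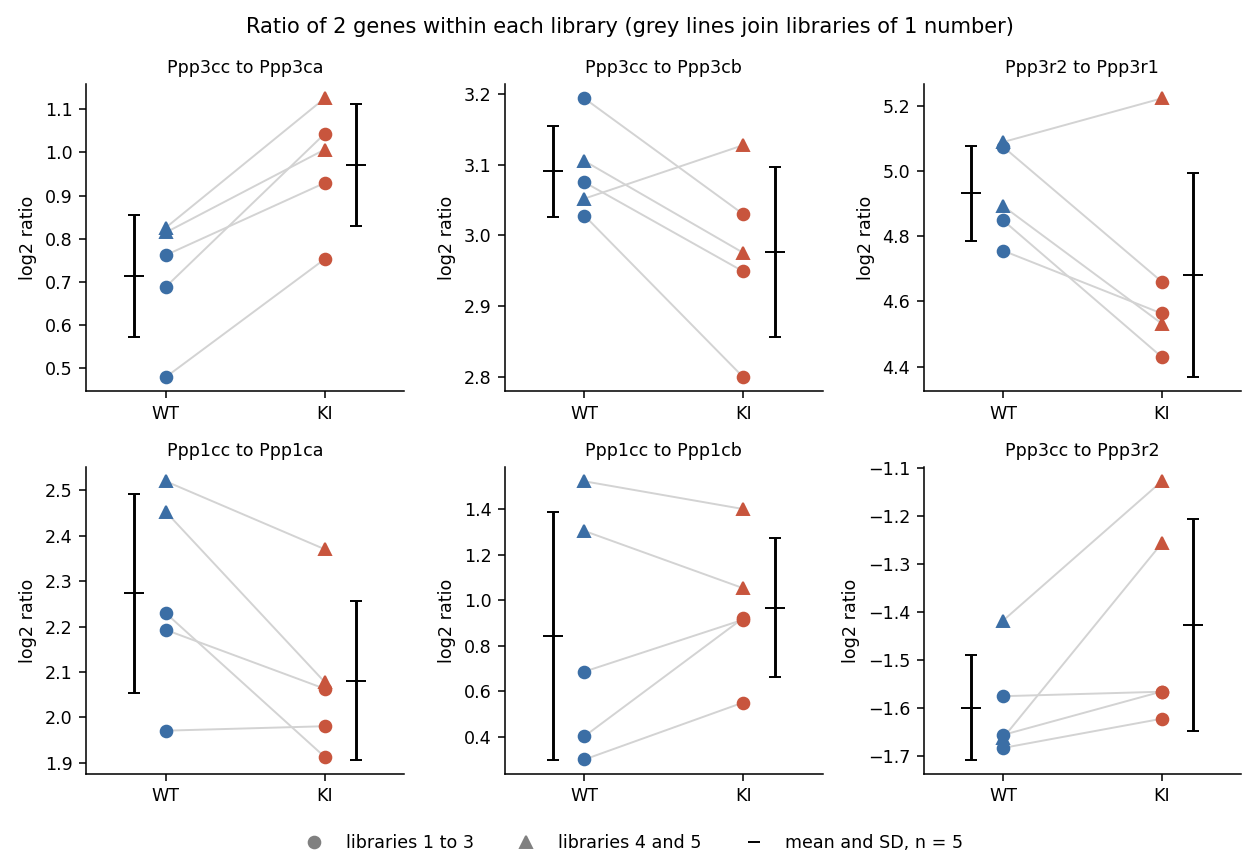
Log2 ratio of 2 genes within each library for 6 pairs, not divided by length. Grey lines join WT and KI libraries of 1 number, circles are libraries 1 to 3, triangles are libraries 4 and 5, and bars are the mean and SD of 5. Ppp3cc to Ppp3ca and Ppp3cc to Ppp3r2 are higher in KI along each of the 5 lines, and the genotypes overlap in all 6 panels.

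The other ratios also overlapped between genotypes. Ppp3r2 to Ppp3r1 was 4.93 ± 0.15 in WT and 4.68 ± 0.31 in KI (SD, n = 5 each; difference -0.25, 95% interval -0.54 to 0.13, exact permutation adjusted p = 0.210). Here KI library 4 at 5.22 lay above every WT library and the other 4 lay below, and without KI library 4 the difference was -0.39 (exact permutation test, adjusted p = 0.0476). Leaving out any other library gave exact permutation adjusted p of 0.238 to 0.362. Ppp3cc to Ppp3cb differed by -0.11 (95% interval -0.26 to 0.02, exact permutation adjusted p = 0.210), and by -0.15 without KI library 4 (exact permutation test, adjusted p = 0.0476). For this ratio any other omission gave exact permutation adjusted p of 0.257 to 0.362. The pair of sperm subunits, Ppp3cc to Ppp3r2, differed by 0.17 (95% interval -0.07 to 0.47, exact permutation adjusted p = 0.210). It too was higher in KI within each of the 5 numbers. Ppp1cc to Ppp1ca differed by -0.19 and Ppp1cc to Ppp1cb by 0.12, with exact permutation adjusted p of 0.210 and 0.651. With the Ppp1ccb row added these differences were -0.35 and -0.0287 (exact permutation test, adjusted p = 0.0952 and 0.825).

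Libraries 1 to 3 and libraries 4 and 5 of both genotypes stood apart on the second principal component of the most variable tested genes. It held 9.75% of the variance of those genes, and what sets the libraries apart was not tested. The Ppp1cc row held 1872, 1668 and 1987 normalized counts in WT libraries 1 to 3 and 3254 and 2559 in WT libraries 4 and 5, against 2140, 2299, 2514, 2569 and 2086 in KI. In WT the later libraries lay above the first 3, while in KI the sets were interleaved. The Ppp1ccb row was 91.6% to 92.8% of both rows in WT libraries 1 to 3 and 87.6% to 87.9% in WT libraries 4 and 5. Within libraries 1 to 3 the log2 fold change of Ppp1cc was 0.33 (limma adjusted p = 0.00728), and within libraries 4 and 5 it was -0.32 (limma adjusted p = 0.246). The Ppp1ccb row had 0.0179 and -0.27 in these sets (limma adjusted p = 0.893 and 0.356). The test of the difference itself gave -0.65 (SE 0.18, limma adjusted p = 0.103), so that the sets were not shown to differ.

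Ppp1ca had a log2 fold change of 0.48 in libraries 1 to 3 (limma adjusted p = 0.00503) and -0.06 in libraries 4 and 5 (limma adjusted p = 0.873). The difference of these was -0.53 (SE 0.20, limma adjusted p = 0.194). Ppp3ca was lower in KI in both sets, by -0.40 and -0.18 (limma adjusted p = 0.00252 and 0.445). For this difference between sets 0 of the 8 genes had an adjusted p under 0.05 (edgeR 0 as well) against 0.247% of all genes, and 2 of the 8 had an unadjusted p under 0.05, as 16.1% of all genes did.

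The preparations also differed in their cells' marker genes, and in bulk RNA alone fewer cells of a type and less RNA per cell cannot be told apart. According to the paper, earlier work showed that KI mice have no elongating spermatids, because their round spermatids fail to elongate. All 8 markers of elongating spermatids were lower in KI, with a summed normalized count of 210716 to 386179 in WT and 31932 to 64107 in KI. Of the 7 round spermatid markers 0 were called (median log2 fold change -0.42, sums of 15897 to 19669 against 9111 to 16665). By adjusted p alone 3 of these 7 passed, beside 22.9% of all genes. Of 8 spermatocyte and 7 spermatogonia markers 0 were called (medians -0.07 and 0.02). Of the cells of the testis outside the germ line, 6 of 9 macrophage markers (sums of 788 to 1032 against 1190 to 1559), 4 of 8 Leydig cell markers (11042 to 19764 against 15952 to 27283), 2 of 5 endothelial markers (265 to 365 against 424 to 805) and 2 of 4 tested peritubular myoid markers (sums over 5 of 120 to 208 against 191 to 236) were higher in KI. For Sertoli cells 0 of 9 markers were called (7709 to 12694 against 8201 to 13581). Over all genes tested, 8.22% were called lower in KI and 6.13% higher. With library totals all 8 Leydig cell markers were called higher, as without WT library 2, while 6 were called without KI library 4, 2 without WT library 4, and 1 without WT library 1, WT library 3 or KI library 5. Of the peritubular myoid markers 1 was called by edgeR and without any 1 of WT libraries 1 to 3 or KI libraries 1, 3, 4 and 5, and of the endothelial markers 1 without KI library 5. Of the round spermatid markers 2 were called lower without KI library 3 and 1 without KI library 1, KI library 2 or WT library 3. In libraries 4 and 5 alone 5 of them were called lower (median log2 fold change -0.73). In libraries 1 to 3 alone 0 were (median -0.26). Every marker measured had a read in every library. Their part in the values of the 8 genes was not tested.

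Around the isoforms, genes of PP1 regulatory subunits were called at a share near that of all genes (16.2% beside 14.4%). Of the 37 rows with a symbol of the Ppp1r series, 4 were called lower in KI and 2 higher, beside 8.22% and 6.13% of all genes, and the median log2 fold change was 0.06. With library totals 3 were called lower and 4 higher, and with edgeR 4 lower and 1 higher. Ppp1r36 fell from 2526 ± 213 to 1543 ± 158 (log2 fold change -0.71, limma adjusted p = 7.91e-05) and Ppp1r42 from 993 ± 130 to 546 ± 90.3 (log2 fold change -0.87, limma adjusted p = 0.000191). In both genes the genotypes did not overlap. Ppp1r2-ps7 (log2 fold change -1.47) and Ppp1r2-ps3 (-0.86) also fell. They are named as copies of Ppp1r2, with which they may share reads, so that their values are uncertain.

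The 2 that rose held low counts. Ppp1r14a, an inhibitor of myosin phosphatase in smooth muscle, rose from 34.2 ± 14.1 to 67.0 ± 20.3 (log2 fold change 1.00, limma adjusted p = 0.0187, and 0.0524 without WT library 1). Ppp1r3a, a glycogen-targeting subunit of skeletal muscle, rose from 14.9 ± 6.58 to 26.1 ± 3.57 (log2 fold change 0.86, limma adjusted p = 0.0457). That call was lost without any 1 of WT libraries 2 to 5 and KI libraries 1 to 4 (limma adjusted p of 0.0506 to 0.0981). In neither gene were the genotypes without overlap.

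**Figure D5:**
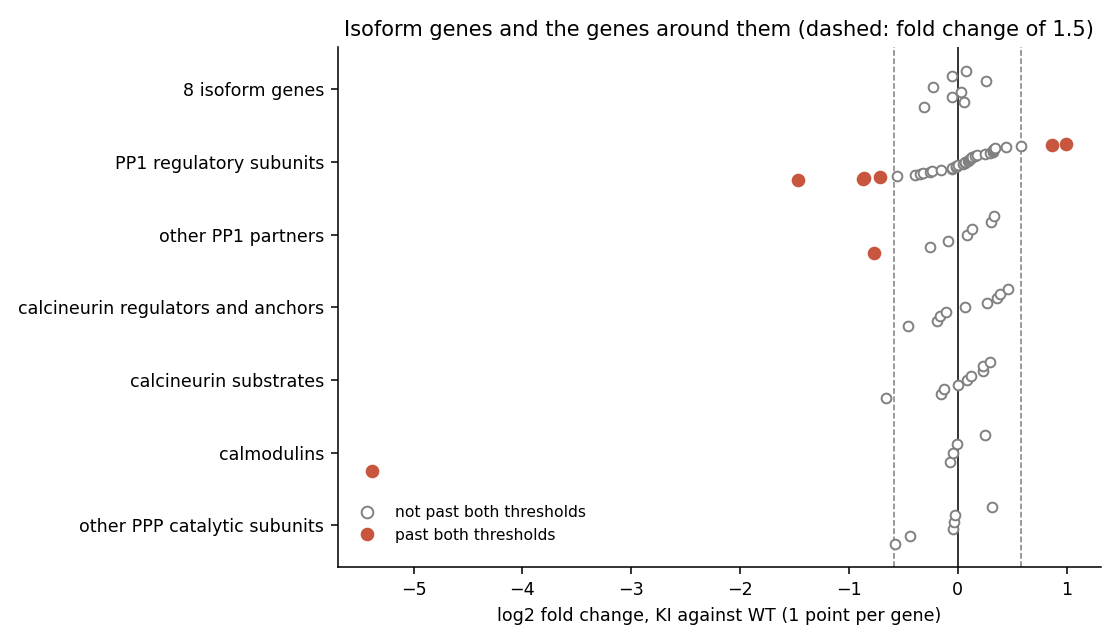
Log2 fold change, KI against WT, of the 8 isoform genes and of the genes in 6 lists of regulators, partners and relatives, 1 point per gene. Filled points are past both thresholds and dashed lines mark a fold change of 1.5. The isoform genes lie between -0.31 and 0.26. The filled points are 6 rows of the PP1 regulatory list, Phactr1 among the other PP1 partners and Calml3 among the calmodulins. Ppp1r2-ps3 and Ppp1r2-ps7, named as copies of Ppp1r2, are among these 6 rows.

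The classical inhibitors and targeting subunits of PP1 in sperm were not called. Ppp1r11 (inhibitor 3) was at 9608 ± 1302 in WT and 6665 ± 1678 in KI (log2 difference -0.56, limma adjusted p = 0.0245), just short of the fold change threshold. Ppp1r2 (inhibitor 2) was at 1731 ± 47.4 and 1474 ± 70.6 without overlap (log2 difference -0.23, limma adjusted p = 0.0382). Ppp1r7 was at 1205 ± 118 and 1192 ± 104 (log2 difference -0.01), and the nuclear subunit Ppp1r8 at 403 ± 57.0 and 455 ± 46.0 (log2 difference 0.18, limma adjusted p = 0.284). Leaving out 1 library raised the adjusted p above 0.05 for Ppp1r2 (any but KI library 1) and for Ppp1r11 (WT libraries 2, 3 and 4 and KI library 4), to at most 0.0759 and 0.0588. With library totals the log2 differences were -0.0030 for Ppp1r2 and -0.33 for Ppp1r11 (limma adjusted p = 0.977 and 0.143).

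Of 7 other PP1 partners 1 was called, or 14.3%, beside 14.4% of all genes: Phactr1, a binder of actin and PP1, fell from 179 ± 38.9 to 106 ± 31.0 (log2 fold change -0.77, limma adjusted p = 0.0105). With library totals its log2 fold change was -0.54 (limma adjusted p = 0.0570). The kinases Gsk3a and Gsk3b, which act on the inhibitor Ppp1r2, had log2 differences of 0.30 and -0.25 (limma adjusted p = 0.0608 and 0.0702). The median of the 7 was 0.09.

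Of 9 measured calcineurin regulators and anchors, 0 were called and 2 had an adjusted p under 0.05, beside 14.4% and 22.9% of all genes. Their median log2 fold change was 0.06. Spata33, which tethers sperm calcineurin to mitochondria, was at 4186 ± 204 in WT and 3077 ± 461 in KI with no overlap (log2 difference -0.46, limma adjusted p = 0.00535), below the fold change threshold. With library totals its log2 difference was -0.23 (limma adjusted p = 0.0915). The other gene with an adjusted p under 0.05, Chp1 (named after its values were seen), was higher in KI. It had no overlap and a log2 difference of 0.39 (limma adjusted p = 0.0116), or 0.62 with library totals. The inhibitors Rcan1, Rcan2 and Rcan3 had log2 differences of -0.19, 0.27 and 0.46 (limma adjusted p = 0.195, 0.581 and 0.0919). Of 9 calcineurin substrates 0 were called, with a median of 0.09, and none of the 9 had an adjusted p under 0.05 by limma. Without KI library 4 or WT library 4, 1 was called lower (Nfatc1, named after its values were seen).

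Of the calmodulin list, Calm2 was at 7341 ± 1385 in WT and 7276 ± 1019 in KI (log2 difference -0.0046, limma adjusted p = 0.987), and Calm3 at 8398 ± 486 and 8021 ± 725 (log2 difference -0.07, limma adjusted p = 0.648). The calmodulin-like gene Calml3 had 18.1 to 68.8 normalized counts in WT and no read in any of the 5 KI libraries. Set against an allowance of 3 reads in each KI library, the WT mean was 16.4-fold higher. This figure leaves out the spread among the WT libraries. Of 6 other catalytic subunits of the phosphatase family 0 were called and 3 had an adjusted p under 0.05, beside 14.4% and 22.9% of all genes. Their median log2 fold change was -0.04. Of these 6, 1 (Ppp2cb, named after its values were seen) was called lower without KI library 1, 3 or 4 or WT library 4 or 5.

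The genes most like the sperm isoforms over the 10 libraries, among those averaging 100 or more normalized counts, were found by Pearson correlation of log2 values as a description. For Ppp3cc they were Nsun2, Ccdc65 and Ash2l (r of 0.956, 0.956 and 0.954). For Ppp3r2 they were 1700073E17Rik, Spata4 and Taf9 (r of 0.978, 0.978 and 0.972), and for the Ppp1cc row Spint2, Snrpb and Rpl13a (r of 0.973, 0.971 and 0.955). Neither partner in sperm calcineurin was in the list of the other, and the correlation of Ppp3cc with Ppp3r2 was 0.18. These points share genotype, library set and scaling.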

How the data were processed

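The authors trimmed adapters, used STAR for alignment of paired-end reads (mm10) and the Partek E/M model for counting on RefSeq genes. The deposited signal of a gene is its count over the DESeq2 size factor of the library. Dividing by what 1 read is worth in a library returned whole reads (100% of values under 5000 reads, tolerance 0.1 read), which gave the depth and the count tests. The 8 genes, the gene lists and the tests were chosen with earlier results of these data known.

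Genes that passed filterByExpr were compared with limma (version 3.58.1, R 4.3.3) with a variance trend on log2(normalized count + 1), adjusted by Benjamini-Hochberg over all genes. edgeR (version 4.0.16) and DESeq2 (version 1.42.0) were run on the recovered reads as alternatives. Fits were tested on simulated data. Levels were divided by the union of GENCODE exons. Intervals of ratios hold the shifts that the exact test did not refuse. A gene without a read in a library was allowed up to 3 reads, which covers counting error only.

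After genotype means were removed, WT and KI libraries of the same number (a number the labels give) correlated with r of 0.306, 0.105, 0.280, 0.216 and 0.462, other pairs with a mean of -0.07, and the number was used as a block in an alternative. The genes named were the 8, Ddx25, overlapping genes, called genes of the lists (6 per direction for PP1 subunits), a fixed set of PP1 and calcineurin regulators, and the 3 most alike of each sperm gene. Columns not assigned to a library numbered 0. The values of 1 gene of the lists are not reported here.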

Additional observations from a re-analysis of the deposited data

Results flagged for a closer look

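Ppp3r2 in KI library 5 was at 7791 normalized counts, farther below the other 4 KI libraries (9636 to 10356) than Dixon's limit for 5 samples allows. WT library 5 was also the lowest of its genotype. Of 28 groups checked (8 genes and 6 ratios in 2 genotypes) this was 1, and chance flags about 1 group in 20. Without KI library 5 the log2 fold change of Ppp3r2 was -0.16 (limma adjusted p = 0.275).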

How the results depend on the processing

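Of the 8 genes 0 were called under every test, scaling, pseudocount, filter and set of libraries tried, and 1 without the fold change threshold. Over all genes 2209 were called, 3529 without that threshold and 969 at a fold change of 2. The library number as a block changed the call by adjusted p of Ppp3r2 (log2 fold change -0.23, limma adjusted p = 0.0370) and of no other of the 8, and no ratio could pass in sign flips of 5 pairs (smallest exact p = 0.0625). Library totals turned Ppp3cc to 0.18, Ppp3r2 to 0.00445 and Ppp1cb to 0.18, and upper quartile scaling turned Ppp3cc to 0.0403 and Ppp1cb to 0.0404. These scalings move all genes together. Ppp3ca, the 1 gene with an adjusted p under 0.05, lost it with library totals (-0.08, limma adjusted p = 0.449), upper quartile scaling (-0.22, limma adjusted p = 0.0723) and libraries 4 and 5 alone (-0.18, limma adjusted p = 0.445). Libraries 4 and 5 alone turned Ppp3cc to 0.0654, Ppp3r1 to -0.17, Ppp1ca to -0.0562 and Ppp1cc to -0.32, and gave 0.35 for Ppp3cc to Ppp3r2 and -0.19 for Ppp1cc to Ppp1cb (0.33 in libraries 1 to 3). The cause was not tested. Adding the Ppp1ccb row, an alternative chosen after seeing the data, turned Ppp1cc to -0.0819 and Ppp1cc to Ppp1cb to -0.0287, and gave -0.35 for Ppp1cc to Ppp1ca.

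Leaving out 1 library at a time gave log2 fold changes of -0.0477 to 0.15 for Ppp3r1 (below 0 without KI library 1, 2 or 3 or WT library 5), -0.13 to 0.0243 for Ppp1cb (above 0 without WT library 1 or KI library 4 or 5) and -0.0282 to 0.21 for Ppp1cc (below 0 without WT library 2), and kept the sign of the other 5 genes. The ratios ran from 0.20 to 0.31 for Ppp3cc to Ppp3ca, -0.15 to -0.0703 for Ppp3cc to Ppp3cb, -0.39 to -0.19 for Ppp3r2 to Ppp3r1 and -0.0109 to 0.29 for Ppp1cc to Ppp1cb (below 0 without WT library 1). By coding length Ppp3cc made up 57.9% in WT and 61.1% in KI and the Ppp1cc row 55.7% and 56.5%, and without division by length 57.9%, 61.1%, 56.4% and 57.2%. Over WT libraries the share of the Ppp1cc row ran from 48.7% to 65.1% by coding length. Without division by length it ran from 49.4% to 65.7%. With 5 libraries a genotype the standard errors of the 8 log2 fold changes were 0.09 to 0.15. A gene that was not called may still differ by any amount within its interval.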
